A study of Homo sapiens with 9 samples.

Results

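Untreated Cal-27 cells, a human tongue squamous carcinoma line, were profiled by sequencing of poly(A)-selected RNA in 3 control libraries, and the levels of all genes in those libraries are described here. They were chosen by their treatment label alone and are 3 of the 9 libraries of the series. The other 6 libraries, of cells that received exosomes (hOMF-Exo or CAFs-Exo) for 48 h, enter no comparison. The deposited table lists 16366 genes, all of which are considered. Control cells, labelled WT for genotype and Normal Control for treatment, received no exosomes and grew, like all groups, in high-glucose DMEM with 10% fetal bovine serum. All 3 libraries come from 1 cell line, and nothing in the labels says whether they were separate cultures, so the spread between them may be technical.

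Squamous epithelium is built on a basal layer that anchors to the basement membrane through integrins and laminin, and its cells are held by a network of paired type I and type II keratins. The transcription factor p63 maintains the basal state, and cells leaving that layer switch keratins and build a cornified envelope. Carcinoma cells of this origin keep parts of that programme, commonly depend on the EGF receptor, and often secrete chemokines and cytokines. Many of these functions are encoded by families of similar genes, the paralogs, of which a cell type uses only some.

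Levels are given as TPM, a relative abundance of transcripts, which is scaled by transcript length, so that genes can be compared with each other. Each value written with ± is the mean and SD of the 3 control libraries, and 3 values in a row are replicates 1, 2 and 3. A gene was called expressed at 1 TPM or more in all 3 libraries and near 0 below 0.1 TPM in all 3. The libraries held between 11277837 and 12605427 counts, and 1 TPM corresponded to a median of 20.8 to 23.4 counts. A count of 0 allows up to 3 counts, or 0.238 to 0.266 CPM (counts scaled to library size), which covers counting error only. No group was compared with another, so no test was made, and an order between genes is called separate only where every library of the higher lay above every library of the lower.

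Control replicate 3 stood apart in a set of genes of blood cells. In it, 45 genes of at least 5 TPM were more than 10-fold above both other libraries, against 1 gene in replicate 1 and 0 in replicate 2. Their summed level was 5.99, 8.54 and 1232 TPM in replicates 1, 2 and 3. Serglycin (SRGN), the core protein of secretory granules, was at 0.15, 0.44 and 165 TPM, and the neutrophil serine proteases ELANE, AZU1, CTSG, PRTN3 and PRSS57 were present with it. ELANE was at 0.62, 0 and 111 TPM, from 3, 0 and 647 counts. AZU1 was at 0.21, 0 and 85.2, CTSG at 0.21, 0.2 and 70.6, PRTN3 at 0, 0.18 and 65.1 and PRSS57 at 0.17, 0 and 44.2 TPM. The myeloid transcription factor SPI1 was listed at 0 in replicates 1 and 2 and at 20 TPM in replicate 3, and the common leukocyte gene PTPRC was at 0.03, 0 and 2.44 TPM. Of 11 listed myeloid granule genes, a list chosen after its values were seen, 0, 0 and 11 reached 1 TPM in replicates 1, 2 and 3, with sums of 1.76, 1.02 and 569 TPM. Of 16 general leukocyte genes, likewise chosen, 4, 4 and 16 reached 1 TPM, with sums of 229.5, 247.2 and 525 TPM. Most of the sum in replicates 1 and 2 came from LAPTM5, a lysosomal membrane protein, at 174, 187 and 201 TPM and ARHGDIB at 42.7, 46.6 and 102 TPM, both far above 1 TPM in every library and ARHGDIB highest in replicate 3. PPP1R27, a phosphatase regulatory subunit, and XAGE1A, a cancer-testis gene, were also listed at 0 in replicates 1 and 2 and stood at 112 and 53.6 TPM in replicate 3. Of the 10 most variable genes of at least 10 TPM on average, all 10 were of this kind, the others being GMFG (0, 0.38 and 30.1 TPM) and LST1 (0, 0.82 and 46.4 TPM), both genes of blood cells.

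The epithelial genes KRT5, KRT17, TP63 and EGFR did not follow this pattern, though their levels were not equal between libraries. The summed type I keratins of stratified epithelium, mostly KRT17, lay between 2241 and 3244 TPM, with an SD of 18.4% of the mean. KRT5 stood at 605, 515 and 516 TPM and EGFR, the EGF receptor, at 328, 295 and 265 TPM. Replicate 3 was within the range of the other libraries in KRT5 and the lowest in EGFR, KRT17, TP63 and CCL2. Squared differences between the counts of replicates 1 and 2 were 4.09 times those of sampling noise (chi-square per degree of freedom, a ratio of variances). The ratio was 9.47 for replicates 1 and 3 and 6.17 for 2 and 3, so each pair of libraries differed by more than sampling noise. The genes of replicate 3 enter these ratios, which cannot tell separate cultures from technical spread. Because a gene had to reach its threshold in all 3 libraries, none of the blood cell genes that were near 0 in replicates 1 and 2 counts as expressed. In bulk RNA a few cells with much of a transcript and many cells with little of it cannot be told apart. The family members described below whose mean rests on replicate 3 are given by library. Members of that kind in families described without them were the metallothionein MT1G (0, 0 and 12.9 TPM), the leukocyte tetraspanin CD53 (0, 0 and 3.78 TPM), the annexin ANXA6 (0.5, 0.29 and 3.22 TPM), the BMP antagonist NOG (0.48, 0.39 and 2.95 TPM) and the endothelial co-receptor ENG (0.15, 0.13 and 2.80 TPM), among others. In all of these the level lay mostly in replicate 3, and the part of these transcripts in any other value was not tested.

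**Figure D1:**
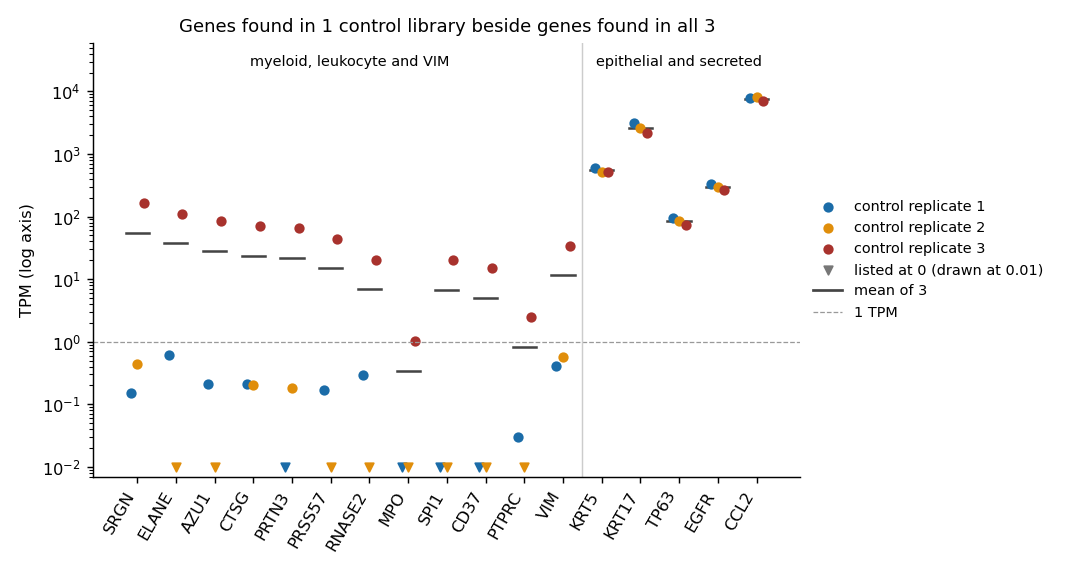
Level in TPM on a log axis of 12 myeloid, leukocyte and mesenchymal genes and 5 epithelial or secreted genes in each control library, with a line at the mean of 3 and triangles for libraries listed at 0. The genes on the left reach 1 TPM in replicate 3 alone. There they range from MPO at 1.02 TPM (0 and 0 in the others) to SRGN at 165 TPM (0.15 and 0.44). KRT5, KRT17, TP63, EGFR and CCL2 are far above 1 TPM in all 3, and all but KRT5 are lowest in replicate 3.

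Of the 16366 listed genes, 11378 were expressed (69.5%), 6966 reached 10 TPM in all libraries (42.6%), 1265 reached 100 TPM (7.73%) and 124 reached 1000 TPM (0.758%). Another 1948 genes were near 0 (11.9%), 902 of them with 0 counts in all 3 libraries. The 50 most abundant genes held 33.4% of all TPM, and the 10 most abundant held between 15.2% and 16.5% in each library. The table lists no gene encoded by the mitochondrial genome. MTRNR2L2 and MTRNR2L8, whose sequences are alike to RNA of the mitochondrial ribosome, were listed highest at 42689.7 ± 3569 and 28032 ± 1930.2 TPM, and their expected counts were not whole, which shows that reads were divided among similar genes. Both together held 7.07% of all TPM, and the origin of their reads was not tested.

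Below these, the highest levels belonged to genes of metal and iron storage, glycolysis, translation, actin and calcium binding, and 1 chemokine. Metallothionein MT2A, which binds zinc and copper, was at 15159 ± 3319 TPM and ferritin heavy chain FTH1 at 13877 ± 844 TPM. The glycolytic enzyme GAPDH was at 13654 ± 581 TPM. Ribosomal proteins made up 11 of the 20 highest genes, from RPS27 at 10109 ± 758 and RPL35 at 9808 ± 855, with RPS2, RPL41, RPLP2, RPS18 and RPS15 among them, to RPL39 at 4878 ± 148 TPM. The actin monomer binding thymosins TMSB10 (9037 ± 1046 TPM) and TMSB4X (6061 ± 393 TPM) were in the same range, with the calcium-binding protein S100A6 at 7242 ± 606 TPM. CCL2, the monocyte-attracting chemokine, took rank 11 of all genes at 7834, 8068 and 7035 TPM, above most ribosomal proteins. IGFBP3, the main carrier of insulin-like growth factors, followed at 4653 ± 313 TPM, and LCN2, an iron-scavenging antimicrobial protein, was at 2716 ± 422 TPM.

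**Figure D2:**
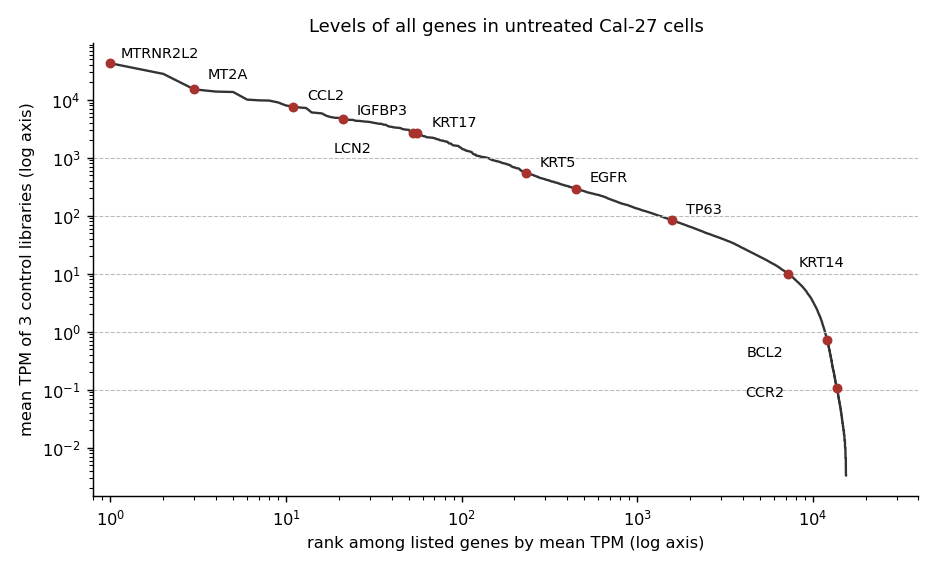
Mean TPM of the 3 control libraries against rank for all genes above 0, both on log axes, with 12 genes marked in red and dashed lines at 0.1, 1, 10, 100 and 1000 TPM. CCL2 (rank 11) lies among the ribosomal proteins, KRT17 (rank 56) lies far above KRT14 (rank 7233), and BCL2 and CCR2 lie below 1 TPM.

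The promoter windows of highly expressed genes, from 250 bases before to 50 after the start, were read from RefSeq (GRCh38.p14), which holds them for 13006 of the listed genes. The letters TATAAA on the sense strand between 40 and 15 bases before the start were present in 8 of the 99 windows of genes of at least 1000 TPM (8.08%). Their share was 1.55% among expressed genes as a whole and 4.82% among genes near 0. It was 2.43% among the 13006 listed genes with a window and 2.54% among all 27305 windows, which include genes not listed. On either strand and anywhere in the window (TATAAA or TTTATA) the shares were 12.1%, 5.37%, 12.54%, 7.18% and 11.95% in the same order. The CpG ratio, observed over expected, had a median of 0.847 in expressed genes and 0.482 in genes near 0, and the GC content a median of 65.3% and 58.7%. A match describes letters and not a working site. Shown as examples are the 100 bases before the start of a metal-binding gene, an S100 gene and a chemokine with TATAAA (in capitals), and of KRT5, the main type II keratin, without it:
MT2A (chr16:56608484-56608583, plus strand): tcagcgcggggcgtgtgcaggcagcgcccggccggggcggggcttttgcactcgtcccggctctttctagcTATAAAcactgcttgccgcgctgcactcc
S100A9 (chr1:153357754-153357853, plus strand): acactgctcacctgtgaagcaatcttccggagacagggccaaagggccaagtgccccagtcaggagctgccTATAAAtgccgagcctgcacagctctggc
CXCL8 (chr4:73740469-73740568, plus strand): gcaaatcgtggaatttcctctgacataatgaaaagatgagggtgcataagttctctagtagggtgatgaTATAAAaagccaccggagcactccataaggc
KRT5 (chr12:52520395-52520494, minus strand): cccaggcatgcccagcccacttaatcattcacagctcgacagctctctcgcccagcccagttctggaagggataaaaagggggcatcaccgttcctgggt

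Of 45 listed keratins and other intermediate filament genes, 17 were expressed (37.8%, against 69.5% of all genes), 10 reached 10 TPM (22.2%, against 42.6%) and 11 were near 0 (24.4%, against 11.9%). KRT17, the type I keratin of basal appendage cells and of stressed or hyperproliferative epithelium, was at 3144, 2601 and 2154 TPM and made up 96.5% ± 0.408 of the type I keratins of stratified epithelium. The basal keratin KRT15 came next at 68.6 ± 5.52 TPM. KRT14, the usual basal partner of KRT5, was at only 13.7, 9.56 and 7.10 TPM, from 143, 102 and 84 counts, and so stood more than 100-fold below its neighbour KRT17. Its order with the suprabasal keratin KRT10 (11.2 ± 1.84 TPM) was not separate. KRT16, which is commonly induced together with KRT17, was at 4.08 ± 0.561 TPM, and KRT13, the type I keratin of suprabasal oral mucosa, was at 0.09, 0.09 and 0.16 TPM. KRT17 and KRT14 lie close together on the minus strand of chromosome 17, at 41619441 to 41624842 and 41582279 to 41586921 in GRCh38 (GENCODE 29).

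Among type II keratins KRT5, the basal keratin, was at 545 ± 51.5 TPM (84.2% of the type II keratins of stratified epithelium), and KRT80, a keratin of cell borders, was at 91.2 ± 6.29 TPM. The activation keratins KRT6A and KRT6B, common partners of KRT16 and KRT17, were at 4.47 ± 0.367 and 5.503 ± 0.186 TPM, while KRT6C was near 0. Reads of KRT5 and of the KRT6 genes were partly shared with similar genes. Of the keratins of simple epithelium KRT18 and KRT8 were higher than KRT5 in every library, and KRT7 and KRT19 lower. KRT18 was at 851, 1029.8 and 810.4 TPM and KRT8, its type II partner, at 799.6, 845 and 845 TPM, and their order with each other was not separate. KRT7, of ductal and simple epithelium, was at 22.02 ± 5.01 TPM and KRT19 at 0.47, 0.69 and 0.93 TPM. Among the hair keratins 0 of 11 were expressed, against 69.5% of all genes.

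Of the non-keratin filaments, NEFM, a neurofilament subunit, was at 3.40 ± 0.555 and SYNM, synemin, at 1.69 ± 0.145 TPM. Vimentin (VIM), the filament of mesenchymal and blood cells, was at 0.41, 0.56 and 34.4 TPM, so that its mean of 11.8 TPM rests on replicate 3 and the mean of replicates 1 and 2 was 0.485 TPM. Lamin LMNA, which lines the nucleus, was at 474 ± 14.05 TPM and exceeded LMNB2 (99.4 ± 12.3) and LMNB1 (21.4 ± 3.40) in every library.

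**Figure D3:**
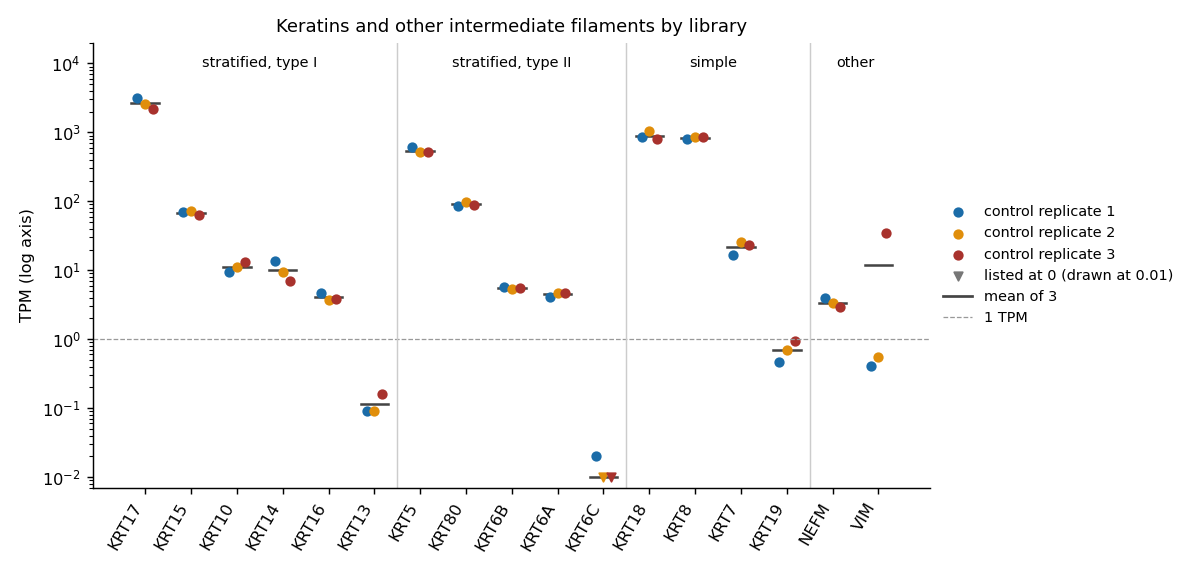
Level in TPM on a log axis of 15 keratins and 2 other filament genes in the 3 control libraries, grouped by kind, with a line at the mean and triangles for libraries listed at 0. KRT17, KRT5, KRT18 and KRT8 lie between 515 and 3144 TPM, KRT14 lies near 10, and VIM is above 1 TPM in replicate 3 only.

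The labelled identity can be read from 3 basal markers. KRT5 and TP63 were well expressed, and KRT14 was expressed at a low level. TP63, on chromosome 3 at 189631416 to 189897279, was at 94.6, 83.6 and 74.4 TPM. Its relative TP73 was at 7.70 ± 0.913 TPM. Of 23 listed squamous transcription factors, 19 were expressed (82.6%, against 69.5% of all genes). In 13 of the 23 the level reached 10 TPM, as it did in 42.6% of all genes. SOX15 (231 ± 24.1 TPM) and the AP-1 subunit FOSL1 (199.6 ± 32.1 TPM) were highest, followed by EHF (176 ± 12.3), an epithelial ETS factor. TFAP2A was at 46.5 ± 2.002, KLF5 at 41.4 ± 2.93 and PITX1 at 33.5 ± 3.36 TPM. SOX2, often amplified in squamous carcinoma, was at 0.18, 0 and 0.05 TPM, and SOX15 held 69.99% of the summed level of 12 SOX genes, ahead of SOX7 (44.2 ± 3.65 TPM). By expected counts, without scaling for length, its share was 40.3%. GRHL3, a factor of terminal differentiation, was at 0.14, 0.05 and 0 TPM, against 11.8 ± 0.498 TPM for GRHL2.

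Of 22 listed genes of the cornified envelope, 7 were expressed (31.8%, against 69.5% of all genes) and 10 near 0 (45.5%, against 11.9%). Cystatin A (CSTA), a protease inhibitor of the envelope, was the highest at 327 ± 27.5 TPM, with the desmosomal plakins PPL (53.9 ± 2.89 TPM) and EVPL (15.4 ± 2.27 TPM) and cornifelin (CNFN, 24.8 ± 5.19 TPM) below it. Involucrin (IVL) was at 0.07, 0 and 0.06 and filaggrin (FLG) at 0, 0.01 and 0 TPM. Small proline-rich SPRR1A was at 5.04 ± 1.16 TPM, and SPRR1B at 1.90, 0 and 3.31 TPM. Transglutaminase TGM1, the crosslinker of keratinocytes, was at 1.16, 0.78 and 0.93 TPM, whereas the widely distributed TGM2 was at 70.4 ± 2.2 TPM and held 96.5% ± 0.369 of the transglutaminase level.

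The S100 family, small calcium-binding proteins, had 13 of 18 listed members expressed (72.2%, near the 69.5% of all genes). In 12 of the 18 the level reached 10 TPM, as it did in 42.6% of all genes. By TPM S100A6 led with 37.1%, followed by S100A9 (4341 ± 120.3 TPM) and S100A11 (3252 ± 271 TPM). S100A8, which forms calprotectin with S100A9, was at 491 ± 15 TPM, below its partner in every library. By expected counts S100A9 led, and the share of S100A6 was 20.98%. The epidermal S100A2 was at 1401 ± 121 TPM, S100A10, the partner of ANXA2, at 1259 ± 97.4 and psoriasin S100A7 at 599 ± 63.1 TPM.

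Of the genes of the mesenchymal programme, 4 of 11 were expressed (36.4%, against 69.5% of all genes). Fibronectin FN1 was at 64.4 ± 4.77 TPM and SNAI2, which basal keratinocytes also express, at 39.8 ± 3.23 TPM. SNAI1 was at 1.52 ± 0.368, TWIST1 at 1.16, 0.47 and 1.36, ZEB1 at 0.25, 0.54 and 0.34 and ZEB2 at 0.04, 0.11 and 2.23 TPM, ZEB2 being highest in replicate 3.

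Of 84 listed cell adhesion genes 51 were expressed (60.7%, against 69.5% of all genes), and in 1 of 10 families a member held at least 90% of the family level. P-cadherin CDH3, of basal cells, and E-cadherin CDH1 were level at 205 ± 12.1 and 199 ± 22.6 TPM, their order not separate, and the neural cadherin CDH2 was at 18.9 ± 2.34 TPM. Claudin CLDN1, the main claudin of squamous tight junctions, was at 973 ± 88.2 TPM (70.1% of claudins), ahead of CLDN4 (218 ± 2.16 TPM). Among desmosomal cadherins DSG2 (46.0 ± 4.14 TPM) exceeded the squamous DSG3 (15.2 ± 1.95 TPM), and DSC3 (13.8 ± 1.76) exceeded DSC2 (6.75 ± 0.646). Plakophilin PKP3 was at 107 ± 7.93 TPM and held 72.0% of the plakophilins, followed by PKP4 (27.6 ± 1.47 TPM), whereas PKP1, the plakophilin of suprabasal desmosomes, was at 1.64 ± 0.377 TPM. Connexin GJB2, of epithelial gap junctions, was at 156 ± 12.5 TPM, GJB5 at 36.1 ± 0.857 and the widespread GJA1 at 7.74 ± 0.645 TPM. In the CEACAM family CEACAM19 was at 14.4 ± 1.88 TPM while CEACAM1 was at 1.09 ± 0.538 TPM and CEACAM5 near 0.

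Integrin chains of hemidesmosomes and of laminin binding dominated. ITGA3 was at 517 ± 28.2 TPM (59.95% of the alpha chains), followed by ITGA6 (154 ± 16.1) and ITGA5 (96.9 ± 9.22), the fibronectin-binding chain. ITGB4, the hemidesmosomal chain that pairs with ITGA6, and the common ITGB1 were level at 459 ± 30.7 and 440.1 ± 38.1 TPM. The leukocyte chain ITGAL was at 0.09, 0.08 and 9.04 TPM and so belonged to the genes of replicate 3. The laminin chains LAMB3 and LAMA3, which assemble together in epithelial basement membrane, were unequal. LAMB3 was at 533, 556 and 547 TPM and LAMA3 at 15.9, 16.8 and 14.1 TPM, so that the alpha chain was the lower in every library.

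Of 227 listed receptors 118 were expressed (52.0%, against 69.5% of all genes), 70 reached 10 TPM (30.8%, against 42.6%) and 40 were near 0 (17.6%, against 11.9%). Their median level was 1.65 TPM, against 7.26 for all genes. Among growth factor receptors DDR1, a collagen-binding kinase, was highest at 770.3, 689.9 and 614 TPM, while its relative DDR2, a kinase of mesenchymal cells, was at 0.04, 0.05 and 0.12 TPM. EGFR, on chromosome 7 at 55019021 to 55211628, was at 296 ± 31.4 TPM and made up 86.5% ± 1.39 of its family. ERBB2 was at 28.3 ± 1.01 and ERBB3 at 17.3 ± 1.89 TPM, with ERBB4 near 0. MET, the receptor of hepatocyte growth factor, was at 92.7 ± 5.997 TPM and MST1R at 14 ± 0.377 TPM. EPHA2 (90.6 ± 7.04 TPM) led the EphA and EPHB4 (58.0 ± 1.64 TPM) the EphB receptors, with EPHA1 at 16.01 ± 0.54 and EPHB2 at 13.97 ± 0.905 TPM. AXL, of the TAM family, was at 40.3 ± 0.744 TPM, above TYRO3 (6.98 ± 0.69) and MERTK (3.19 ± 0.505).

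FGF receptors were lower, and no member held most of the family level. The decoy-like FGFRL1 was at 23.1 ± 0.909, FGFR4 at 15.7 ± 0.356, FGFR3 at 14.8 ± 1.37 and FGFR2 at 7.19 ± 0.316 TPM. FGFR1 was at 0, 0 and 1.01 TPM, again with its level in replicate 3 alone. IGF1R was at 14.4 ± 0.632 TPM and the insulin receptor INSR at 1.10 ± 0.374 TPM. NTRK2, a neurotrophin receptor, was at 13.6 ± 0.813 TPM and NGFR, a marker of basal oral epithelium, at 2.32 ± 0.532 TPM. Neuropilin NRP1, a co-receptor of VEGF, was at 7.66 ± 0.601 TPM and NRP2 at 2.01 ± 0.105 TPM, whereas the VEGF receptors FLT1 and FLT4 were near 0. Receptors of stromal and blood lineages were low, with KIT near 0, PDGFRB at 0.19, 0.17 and 0.26 TPM, CSF1R at 3.24 ± 0.487 TPM and FLT3 at 0, 0 and 3.44 TPM.

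For TGF-beta family signals the type I receptors ACVR1 (18.3 ± 1.46), ACVR1B (13.4 ± 0.847), TGFBR1 (8.32 ± 0.165) and BMPR1A (7.63 ± 0.637 TPM) and the type II receptors TGFBR2 (20.01 ± 1.05) and BMPR2 (5.997 ± 0.652 TPM) were expressed. Notch receptors NOTCH1, NOTCH3 and NOTCH2 were at 16.6 ± 0.985, 15.53 ± 1.99 and 12.44 ± 1.22 TPM, with neither NOTCH1 and NOTCH3 nor NOTCH3 and NOTCH2 separate, and the endothelial NOTCH4 near 0. Of the frizzled receptors for WNT proteins FZD6 led at 49.7 ± 2.07 TPM (63.5%), before FZD2 (12.1 ± 0.887 TPM). LRP5, a WNT co-receptor, was at 81.8 ± 4.004 TPM, LRP6 at 4.03 ± 0.166 and LGR4 at 47.3 ± 2.62 TPM. SMO, of the hedgehog pathway, was at 17.1 ± 2.21 TPM, PTCH1 at 1.98 ± 0.404 and the target factor GLI1 at 0.16, 0.35 and 0.16 TPM.

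Cytokine receptors were led by OSMR, the oncostatin M receptor, at 154 ± 9.90 TPM (76.4% of its group), with the shared chain IL6ST at 24.2 ± 1.79 and IL6R at 13.6 ± 0.646 TPM. IL4R (79.6 ± 3.06), IL10RB (64.2 ± 4.55), IL15RA (61.2 ± 5.71) and IL13RA1 (32.4 ± 2.72 TPM) were the main receptors for ligands of lymphoid cells, and the common gamma chain IL2RG was at 0.22, 0.11 and 0.19 TPM. SIGIRR, which restrains interleukin-1 signals, and IL1RAP, the shared signalling chain, were level at 43.7 ± 2.13 and 40.7 ± 5.80 TPM, and IL1R1 was at 8.30 ± 0.333 TPM. The interleukin-17 receptor chains IL17RA (10.4 ± 0.625) and IL17RC (10.1 ± 0.61 TPM) were not separate. EPOR (3 ± 1.34 TPM) and LEPR (2.09 ± 0.511 TPM), receptors of erythropoietin and leptin, led a group of low receptors. Receptors for interferon gamma, IFNGR1 (123 ± 7.76) and IFNGR2 (117 ± 4.86 TPM), exceeded those for type I interferons, IFNAR1 (20.1 ± 0.261) and IFNAR2 (12.2 ± 0.58 TPM). In the TNF receptor superfamily 14 of 24 were expressed (58.3%, against 52.0% of all listed receptors and 69.5% of all genes). The superfamily was led by TNFRSF12A, the TWEAK receptor, at 452 ± 26.5 TPM and LTBR, the lymphotoxin receptor, at 304 ± 19.8 TPM. The death receptors TNFRSF10B (95.2 ± 0.409), TNFRSF1A (94.6 ± 7.27), TNFRSF10A (20.6 ± 0.913) and FAS (14 ± 0.234 TPM) were lower, and TNFRSF6B, a soluble decoy for FASLG, was at 66.3 ± 9.46 TPM.

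Of 18 listed chemokine receptors 2 were expressed (11.1%, against 52.0% of all listed receptors and 69.5% of all genes). The atypical receptor ACKR3, which removes CXCL12, was at 49.5 ± 8.14 TPM and CXCR2 at 1.80 ± 0.419 TPM. CXCR4 was at 0.09, 0 and 4.37 TPM and belonged to the genes of replicate 3. Among other receptors the glucocorticoid receptor NR3C1 held 95.5% of the steroid receptors at 13.3 ± 0.589 TPM, with ESR1 at 0.55, 0.36 and 0.48 TPM. F2RL1, a protease-activated receptor, was at 156 ± 11.8 TPM and F2R at 77.5 ± 15.6 TPM. The purine receptors P2RX4 (75.7 ± 6.59) and ADORA2B (46.6 ± 3.94 TPM) led their group, and TLR2 (10.3 ± 1.502 TPM) led the Toll-like receptors. Prostaglandin receptor PTGER4 was at 1.69 ± 0.551 TPM. Nuclear receptors NR1H2 (60.5 ± 3.63), RARA (49.8 ± 0.648), RXRA (43.5 ± 1.03), PPARD (34.1 ± 0.674) and RARG (29.1 ± 0.788 TPM) were all above PPARG (1.65 ± 0.511 TPM) and RARB (1.32 ± 0.243 TPM).

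Of 196 listed ligands 95 were expressed (48.5%, against 69.5%), 58 reached 10 TPM (29.6%, against 42.6%) and 18 reached 100 TPM (9.18%, against 7.73%). CCL2, on chromosome 17 at 34255218 to 34257203, held 98.1% ± 0.109 of the summed level of 14 CC chemokines. CCL20, which attracts cells with CCR6, was at 110.2 ± 6.78 TPM and CCL5 at 27.5 ± 6.37 TPM. Among CXC chemokines and CX3CL1, CXCL1 (1129.8, 1349 and 1196 TPM) and CXCL8 (369, 395 and 366 TPM), both neutrophil attractants, held 65.0% and 20.04%. CX3CL1 was at 127 ± 8.83 and the membrane-bound CXCL16 at 90.9 ± 6.10 TPM. CXCL2 was at 31.99 ± 4.10 TPM, the interferon-induced CXCL11 and CXCL10 at 18.5 ± 4.34 and 2.57 ± 0.983 TPM, and CXCL9 was listed at 0 in all 3 libraries.

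Interleukin-1 was abundant, with IL1B at 604, 771 and 685 TPM and IL1A at 354, 416 and 389.6 TPM, together most of their family. The receptor antagonist IL1RN, which blocks both, was at 0.37, 0 and 0.82 TPM. IL18 was at 20.9 ± 3.06 TPM and IL33 at 0, 0 and 0.11 TPM. Other secreted signals included IL32 (249.9 ± 4.36 TPM), the myeloid growth factor CSF2 (167 ± 12.6 TPM) and LIF (55.8 ± 7.87 TPM). IL6 was at 14.7 ± 1.19, IL11 at 7.26 ± 0.816 and CSF3 at 6.42 ± 2.29 TPM. In the TNF superfamily TNFSF9 (53.5 ± 1.32), TNF (41.2 ± 4.995), TNFSF10 (37.6 ± 5.58), TNFSF13 (25.9 ± 2.59) and CD70 (23.95 ± 7.42 TPM) were the highest. Of 4 listed interferons 1 was expressed (25%, against 69.5% of all genes), the epithelial IFNE at 1.76 ± 0.266 TPM.

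Growth factor ligands were led by VEGFA (542 ± 36.3 TPM, 58.4% of the PDGF and VEGF ligands), an angiogenic factor, with VEGFB at 231 ± 6.69 TPM. GDF15, a stress-induced member of the TGF-beta superfamily, was at 529, 726 and 738 TPM and lowest in replicate 1. GAS6, the ligand of AXL, was at 394 ± 12.3 TPM and CSF1, a macrophage growth factor, at 62.2 ± 0.954 TPM. TGFB1 held 96.8% of the TGF-beta ligands at 160.3 ± 0.527 TPM, and INHBA, which forms activin A, was at 47.1, 45.1 and 42.6 TPM. Among EGF receptor ligands HBEGF (77.2 ± 13.2 TPM) and NRG1 (64.4 ± 3.77 TPM) were not separate, AREG (19.99 ± 1.80) and TGFA (18.4 ± 1.77 TPM) came after them, and EGF itself was at 0.16, 0.18 and 0.06 TPM. FGF11, an intracellular member, was the highest FGF at 21.97 ± 2.05 TPM, and FGF7 and FGF2 were at 1.13 ± 0.191 and 0.967 ± 0.227 TPM. WNT10A (60.6 ± 2.08), WNT7A (33.6 ± 2.49) and WNT7B (22.3 ± 3.22 TPM) made up most of the WNT level, and WNT5A was near 0. Notch ligands DLL1 (38.2 ± 3.30), JAG1 (35.1 ± 1.22) and JAG2 (25.04 ± 0.798 TPM) were close in level. EFNA1 (117 ± 6.32 TPM) led the ephrins, with EFNA4 (23.1 ± 0.635 TPM) and EFNB2 (19.4 ± 0.79 TPM) next, and NTF4 (12.98 ± 2.17 TPM) led the neurotrophins. The hedgehog ligands SHH, IHH and DHH were not expressed, SHH standing at 0.12, 0.12 and 0.18 TPM.

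Ligands and receptors were then set side by side. Of 99 pairs, both members were expressed in 41 (41.4%), the ligand alone in 19, the receptor alone in 30 and neither in 9. Among single genes 48.5% of listed ligands, 52.0% of listed receptors and 69.5% of all genes were expressed. Some genes, such as EGFR and NOTCH1, stand in several pairs, so the pairs are not independent, and no share for random pairs was computed. In 15 pairs a member was not listed and was counted as not expressed. Among single genes 29.6% of listed ligands, 30.8% of listed receptors and 42.6% of all genes reached 10 TPM. Both members did so in 17 pairs. These were HBEGF, AREG and TGFA with EGFR, NRG1 with ERBB3, GAS6 with AXL, TGFB1 with TGFBR2, JAG1 with NOTCH1 and NOTCH3, JAG2 with NOTCH2, DLL1 with NOTCH1, IL6 with IL6R, TNF with TNFRSF1A, TNFSF10 with TNFRSF10A and TNFRSF10B, EFNA1 with EPHA2, EFNB1 (18.4 ± 0.662 TPM) with EPHB2, and EFNB2 with EPHB4. In the ephrin system 3 of 3 pairs and in the Notch system 4 of 5 pairs had both members expressed, against 41 of all 99 pairs. Such systems hold few pairs.

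Several systems were one-sided. Of 12 chemokine pairs the ligand alone was expressed in 8, against 19 of all 99 pairs, among them CXCL16 with CXCR6, which is not listed. Both members were expressed in 2, CXCL1 and CXCL8 with CXCR2. CCL2 took rank 11 of all genes while its receptor CCR2 was at 0, 0 and 0.32 TPM, CX3CL1 met CX3CR1 at 0, 0 and 0.12 TPM, and CCL20 met CCR6 at 0.29, 0.17 and 0.2 TPM. CSF2 likewise stood against CSF2RA at 0.24, 0.71 and 1.94 TPM, whose highest library was replicate 3. The reverse held for OSMR, whose ligand OSM was at 0, 0.16 and 0.14 TPM, and for TNFRSF12A, whose ligand TNFSF12 was at 0.36, 0.81 and 0.31 TPM. MET was expressed and HGF was not listed in the table. Interferon and hedgehog pairs had the receptor alone in 3 of 3 and 2 of 2, against 30 of all 99 pairs. A transcript level gives neither protein nor secretion.

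**Figure D4:**
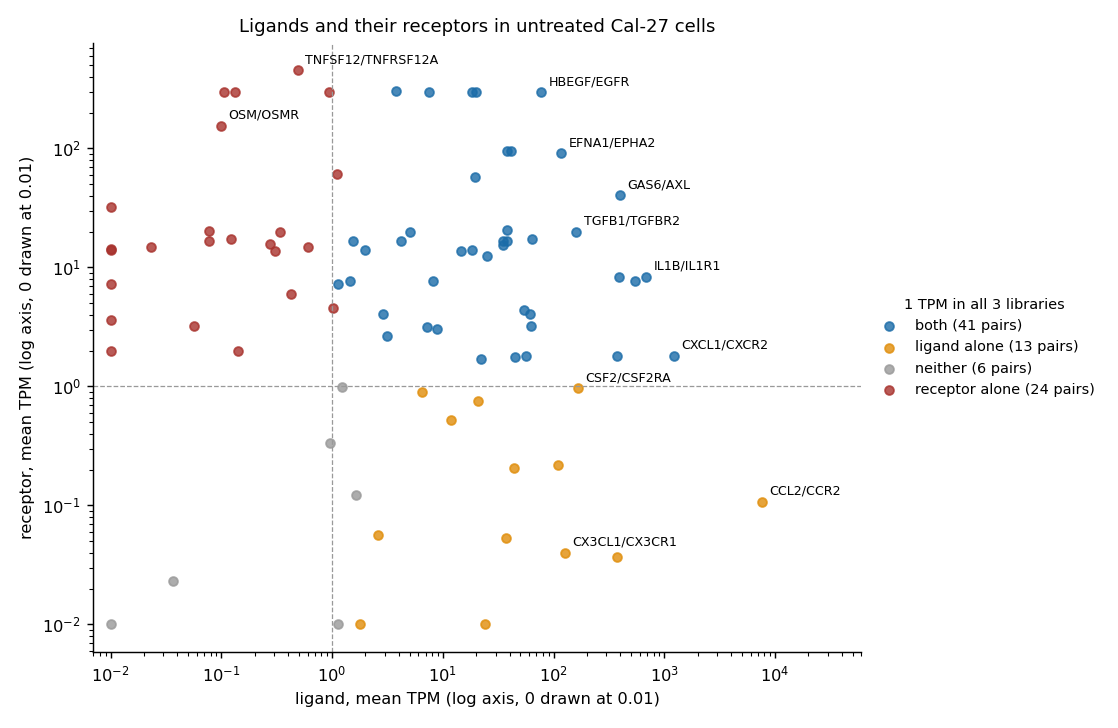
Mean TPM of the receptor against mean TPM of the ligand, on log axes, for the 84 pairs with both members listed, coloured by which members reached 1 TPM in all 3 control libraries and with dashed lines at 1 TPM. CCL2 with CCR2 lies far to the lower right, OSM with OSMR and TNFSF12 with TNFRSF12A to the upper left, and 41 pairs have both members expressed.

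Of 253 listed metabolic genes, 173 were expressed (68.4%, against 69.5% of all genes) and 56 reached 100 TPM (22.1%, against 7.73%). In 12 of 37 metabolic paralog families with an expressed member, 1 member held at least 90% of the family level. Over all kinds of family this was so in 25 of 127, and in 118 the same member led in all 3 libraries. The common facilitative glucose transporter SLC2A1 was at 354 ± 15.52 TPM (79.4%), and SLC2A6 was at 68.2 ± 0.942 TPM. The hypoxia-linked SLC2A3 was at 0.15, 0.14 and 0.94 TPM. HK1, the constitutive hexokinase, exceeded HK2 at 108 ± 6.34 against 46.97 ± 2.58 TPM. PFKP, the platelet-type phosphofructokinase, was at 272 ± 3.66 TPM, above the liver type PFKL (130.2 ± 6.43 TPM). PFKFB3, which makes the activator of phosphofructokinase, was at 47.7 ± 3.63 and PFKFB4 at 11.6 ± 1.58 TPM.

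In lower glycolysis the common isoforms led. ALDOA was at 4527 ± 163 TPM (93.8%) and ALDOC at 297 ± 18.6 TPM, and PGAM1 held 99.0% of the mutases at 789.7 ± 16.9 TPM. ENO1 held 97.6% at 3353 ± 46.1 TPM, and the neuronal ENO2 was at 78.7 ± 9.22 TPM. PKM was at 2279, 2344 and 2422 TPM and the liver and red cell enzyme PKLR near 0. LDHA, which favours lactate formation, was at 1962, 2050.0 and 1689.8 TPM (82.8% ± 2.86), and LDHB at 390.2 ± 38.98 TPM. The monocarboxylate transporters SLC16A3 and SLC16A1, which carry lactate, and SLC16A13 divided their family, with SLC16A3 at 105 ± 2.38, SLC16A1 at 65.1 ± 2.17 and SLC16A13 at 62.1 ± 2.56 TPM. Pyruvate dehydrogenase kinases PDK1, PDK2 and PDK3 were at 40.1 ± 2.17, 24.3 ± 0.949 and 9.59 ± 0.322 TPM. CA9, the hypoxia-inducible carbonic anhydrase, held 92.0% of its family at 308, 298 and 232 TPM, and CA12 was at 0.64, 0.59 and 0.71 TPM.

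In lipid metabolism the desaturase SCD, which makes monounsaturated fatty acids, was at 2103 ± 214 TPM (99.6%), and SCD5 at 8.2 ± 0.515 TPM. ACSS2, the cytosolic enzyme that makes acetyl-CoA from acetate, was at 254, 224 and 176 TPM and lowest in replicate 3, while its mitochondrial relative ACSS1 was at 0.44, 0.28 and 1.2 TPM. ACACA (31.7 ± 1.03 TPM) held 96.0% of the acetyl-CoA carboxylases. FADS3, a desaturase of less settled role, led the FADS genes at 313 ± 20.5 TPM, above FADS1 (67.0 ± 2.65) and FADS2 (14.9 ± 1.997 TPM), the enzymes of polyunsaturated fatty acid synthesis. Elongases ELOVL1 (177 ± 6.55) and ELOVL5 (99.1 ± 1.58) and the acyl-CoA synthetases ACSL3 (78.4 ± 4.82) and ACSL4 (40.5 ± 4.53 TPM) led their families, though ELOVL5 was above ELOVL1 by expected counts. FABP5, the epidermal fatty acid binding protein, held 92.0% at 71.0 ± 12.2 TPM. For entry of fatty acids into mitochondria the muscle-type CPT1B was at 30.1, 28.4 and 24.3 TPM and the common CPT1A at 20.9, 21.8 and 23.5 TPM, so CPT1B was the higher per length in every library. By expected counts, without scaling for length, CPT1A was the higher, so this order depends on the lengths used. SREBF2 (256 ± 15.97 TPM) exceeded SREBF1 (131 ± 6.87 TPM), the paired regulators of sterol and fatty acid genes.

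**Figure D5:**
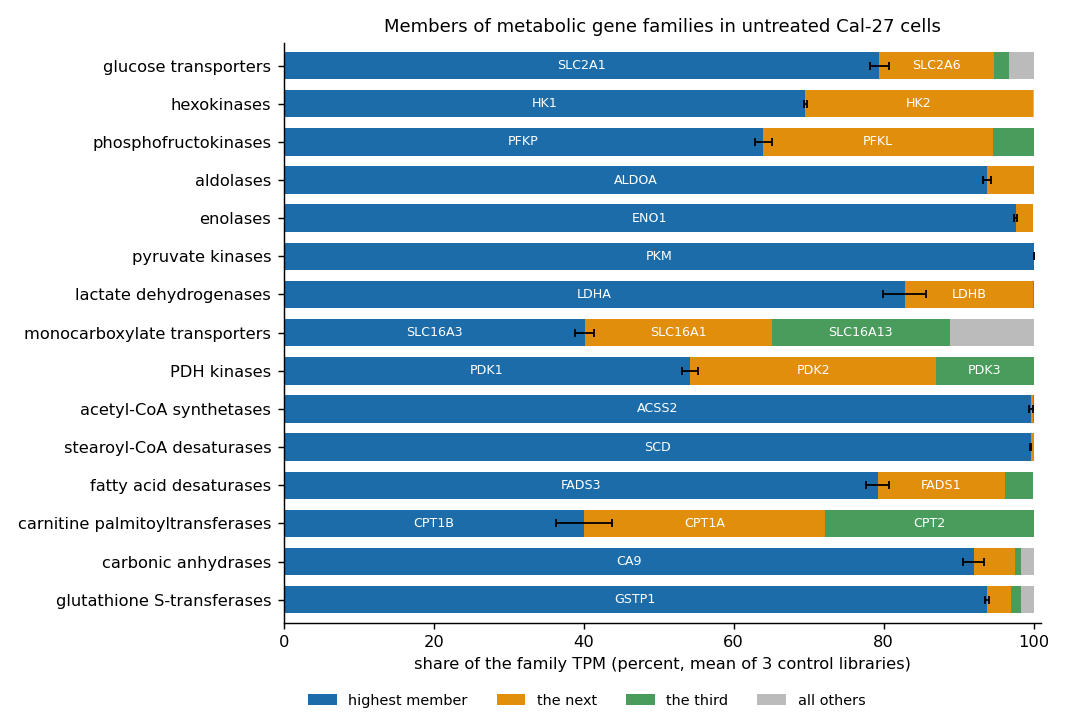
Share of each member in the summed TPM of 15 metabolic gene families (mean of 3 control libraries, with the SD of the highest member as a bar). PKM, SCD, ACSS2 and ENO1 hold nearly all of their families, whereas monocarboxylate transporters, pyruvate dehydrogenase kinases and carnitine palmitoyltransferases are divided among 3 or more members.

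SLC1A5, a glutamine transporter, held 94.1% of its family at 254 ± 21.6 TPM. Arginine synthesis was represented by ASS1 at 910.2 ± 56.2 TPM, against 15.97 ± 1.397 TPM for ASL, the next enzyme. Serine synthesis genes PHGDH and PSAT1 were at 121 ± 9.60 and 111 ± 12.8 TPM, and the mitochondrial SHMT2 (208 ± 14.8 TPM) exceeded the cytosolic SHMT1 (26.3 ± 1.33 TPM). KYNU, kynureninase of tryptophan breakdown, was at 407 ± 16.7 TPM while IDO1, which opens that pathway, was at 7.27 ± 0.784 TPM and TDO2 was listed at 0 in all 3 libraries. IDH1 (208 ± 4.04 TPM) led the isocitrate dehydrogenases, with IDH3G at 87.4 ± 6.32, IDH2 at 74.7 ± 4.25 and IDH3B at 64.5 ± 5.47 TPM. The malic enzyme ME1 was at 32.5 ± 1.155 and ME2 at 5.15 ± 0.743 TPM. ADP/ATP carriers SLC25A6 (520.2 ± 72.2) and SLC25A5 (378 ± 24.97 TPM) exceeded the muscle carrier SLC25A4 (7.30 ± 0.552 TPM). Mitochondrial creatine kinases CKMT1A and CKMT1B, near-identical genes, were at 14.1 ± 2.78 and 9.71 ± 0.879 TPM, and the muscle CKM was near 0.

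Of the pentose phosphate pathway, which yields NADPH and ribose, TKT (343 ± 21.1), TALDO1 (294 ± 23.2), PGD (275.8 ± 3.72) and PGLS (267 ± 2.36 TPM) were at similar levels. For the reverse direction of glycolysis, G6PC3 (72.6 ± 3.74), PC (55.7 ± 3.51) and PCK2 (23.9 ± 2.62 TPM) were expressed, while FBP1 was at 0, 0 and 0.11 TPM. Common subunits of cytochrome c oxidase were high, with COX8A at 2632 ± 69.4 and COX6A1 at 2272 ± 67.8 TPM, and the testis-type COX6B2 was at 1.45, 0.93 and 0.36 TPM. The uncoupling-type carriers SLC25A14 (7.003 ± 1.33) and SLC25A27 (4.05 ± 0.567 TPM) were low, and UCP2 was at 1.91, 0.65 and 4.61 TPM, highest in replicate 3. Glutamine synthetase GLUL was at 303 ± 14.8 TPM, arginase ARG2 at 21.3 ± 1.82 TPM and glutamate dehydrogenase GLUD1 at 76.7 ± 2.52 TPM. In the listed group of prostaglandin and lipoxygenase genes PTGES3 (273 ± 11.3) and PTGES2 (76.4 ± 10.51 TPM) were highest. The inducible cyclooxygenase PTGS2 (24.4 ± 2.59 TPM) was above the constitutive PTGS1 (7.93 ± 0.722 TPM).

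In detoxification, GSTP1 was at 4343 ± 375 TPM and held 93.8% ± 0.296 of the cytosolic glutathione S-transferases. MT2A held 90.8% of the metallothioneins, and its level varied more than most at 15511, 18288 and 11678 TPM. MT1E (991, 820.0 and 496 TPM) and MT1X (954, 709 and 488 TPM) were also lowest in replicate 3, though they were highest in replicate 1 and MT2A in replicate 2. Mitochondrial SOD2 (1452 ± 36.6 TPM) exceeded cytosolic SOD1 (310.4 ± 15.6 TPM), PRDX5 (1325 ± 27.97 TPM) led the peroxiredoxins, and GPX4 (628 ± 34.96 TPM), the lipid peroxidase, exceeded GPX1 (262 ± 12.5 TPM). AKR1B1 (119.6 ± 7.32) and AKR1A1 (56.9 ± 7.26 TPM) led the aldo-keto reductases, and the AKR1C genes were near or below 10 TPM. Cytochrome P450 genes were low throughout, with 8 of 22 expressed (36.4%, against 69.5% of all genes) and CYP1B1 the highest at 7.60 ± 0.352 TPM. Of the 22, 0 reached 10 TPM, against 42.6% of all genes. The stem cell marker ALDH1A1 was near 0, and ALDH1B1 (18.5 ± 0.205 TPM) led the ALDH1 family by TPM and ALDH1L2 by expected counts, with ALDH3B2 (29.96 ± 3.34) and ALDH3A2 (25.9 ± 1.97 TPM) not separate at the head of the ALDH3 family.

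Cytoskeletal and secreted families gave further choices. ACTB (4578 ± 35.3) and ACTG1 (3295 ± 110.4 TPM) made up nearly all actin, and smooth muscle ACTA2 was at 7.56 ± 1.04 TPM. MYH9 held 98.3% of the myosin II heavy chains at 665 ± 37.6 TPM. TUBB (519 ± 19.3), TUBB4B (333.3 ± 24.99) and TUBB6 (224 ± 8.10 TPM) were the main beta tubulins and TUBA1B (695 ± 53.9 TPM) the main alpha tubulin, while TPM1, a tropomyosin, was at 4.03 ± 0.755 TPM against 531 ± 14.3 TPM for TPM4. ANXA2 (2167 ± 148) and ANXA1 (814 ± 36.3 TPM) led the annexins. MMP14, the membrane-anchored collagenase, held 81.2% of the matrix metalloproteinases at 354 ± 7.73 TPM, while the stromal MMP2 was at 0.24, 0.18 and 0.07 TPM and MMP1 at 3.50 ± 0.735 TPM. PLAU (683 ± 35.5), PLAT (296 ± 13.6) and PLAUR (178 ± 15.1 TPM) led the plasminogen system. TIMP1 (370.2 ± 27.3 TPM) exceeded TIMP2 (125 ± 17.3 TPM), and CTSD (1899 ± 75.8) and CTSB (1305 ± 107 TPM) led the cathepsins. By expected counts TIMP2 was above TIMP1 and CTSB above CTSD. SERPINB6 (100.8 ± 8.34) and SERPINB1 (66.6 ± 3.08 TPM) led the clade B serpins, and the squamous cell carcinoma antigens SERPINB4 and SERPINB3 were at 18.4 ± 3.09 and 12.8 ± 1.01 TPM. Kallikreins, the proteases that shed cornified cells, were low, with KLK10 at 1.5 ± 0.255 TPM the 1 expressed of 10 (10%, against 69.5% of all genes). Galectin LGALS1 was at 552 ± 104 TPM, LGALS3 at 246 ± 29.03 TPM and the keratinocyte galectins LGALS7 and LGALS7B were not listed. By expected counts LGALS3 was above LGALS1 and SERPINB1 above SERPINB6. MUC1 (148 ± 26.4 TPM) and MUC16 (34.6 ± 4.45 TPM) were the main mucins. Caveolin CAV1 was at 461 ± 8.19 and CAV2 at 182 ± 17.3 TPM, and AQP3, the epithelial water and glycerol channel, held 89.3% of the aquaporins at 14.1 ± 0.574 TPM. Vesicle tetraspanins CD63 (762 ± 61.6), CD9 (568 ± 72.1), CD151 (543 ± 23) and CD81 (410.3 ± 16.7 TPM) were all high, whereas the leukocyte tetraspanin CD37 was at 0, 0 and 15.1 TPM.

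Among signalling and survival genes, CDK4 (111 ± 9.202 TPM) exceeded CDK6 (7.01 ± 1.08 TPM), and CCND3 (48.9 ± 9.05) and CCND1 (41.7 ± 2.42 TPM) were not separate. The cell cycle inhibitors CDKN1A (142 ± 7.42) and CDKN2A (99.0, 99.0 and 99.2 TPM) were both near or above 100 TPM. HRAS (120.1 ± 7.71) exceeded NRAS (33.9 ± 3.30 TPM), with RRAS above both at 176 ± 24.4 TPM. By expected counts NRAS was the highest of these. ARAF (56.0 ± 0.286) exceeded BRAF (5.95 ± 0.714 TPM). The survival factors BCL2L1 (117 ± 9.48) and MCL1 (75.9 ± 3.74 TPM) were high and BCL2 was at 0.32, 0.57 and 1.28 TPM, while BAD (275 ± 11.4) and BAX (122 ± 1.03 TPM) led their opponents. By expected counts MCL1 was above BCL2L1. STAT6 (132 ± 3.26) exceeded STAT3 (62.4 ± 1.88 TPM), and JAK1 (39.9 ± 1.18) and TYK2 (26.3 ± 1.09 TPM) stood far above JAK2 (0.913 ± 0.0635 TPM). RELA (179.8 ± 5.84) and NFKB2 (83.3 ± 3.996 TPM) led the NF-kB subunits. SMAD3 (35.9 ± 0.909 TPM) led the SMAD proteins, and SMAD4, the common partner of receptor SMADs, was at 1.60, 1.38 and 1.71 TPM from 104, 92 and 126 counts. HIF1A (160.2 ± 4.70) exceeded EPAS1 (64.0 ± 6.43 TPM). YAP1 (52.5 ± 2.95) exceeded WWTR1 (34.3 ± 0.589 TPM), and LYN (56.4 ± 3.83 TPM) led the SRC family, above YES1 (33.02 ± 1.83) and SRC (19.1 ± 0.647 TPM).

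Further families of signalling and maintenance followed. PIK3CB (13.4 ± 1.11) exceeded PIK3CA (8.84 ± 0.685 TPM) among PI3-kinase subunits, and AKT2 (49.6 ± 4.41) and AKT1 (44.5 ± 3.05 TPM) were not separate. Protein kinase C was represented by the atypical PRKCI (34.2 ± 0.439) and PRKCZ (27.7 ± 1.79) and by PRKCH (16.9 ± 0.423) and PRKCD (14.95 ± 1.78 TPM), whereas the classical PRKCA was at 0.74, 1.03 and 1.12 TPM. TEAD3 (38.8 ± 1.64) and TEAD4 (28.6 ± 4.20 TPM) led the partners of YAP1, though TEAD1 led them by expected counts. The retinoblastoma relative RBL2 (26.1 ± 0.449 TPM) exceeded RB1 (19.2 ± 0.349 TPM), and CCNB2 (47.04 ± 2.74) and CCNB1 (45.7 ± 0.937 TPM), cyclins of mitosis, were not separate. BIRC2 (30.03 ± 3.66), BIRC3 (19.8 ± 1.402) and survivin BIRC5 (19 ± 2.25 TPM) were the main inhibitor-of-apoptosis genes, BIRC3 being the highest by expected counts. The maintenance methyltransferase DNMT1 held 85.7% of its family at 29.6 ± 6.50 TPM. MYCL was at 0.58, 0.94 and 0.74 TPM and was the 1 listed member of its pair. Chaperones HSPA8 (497 ± 40.4), HSPA5 (415 ± 20.2) and HSPA1A (332 ± 10.8) led the HSP70 and HSP90AB1 (854 ± 17.7 TPM) the HSP90 genes, and HSPA5 was the highest HSP70 gene by expected counts. EEF1A1 held 99.9% of its pair at 4514 ± 269 TPM. The cytidine deaminases APOBEC3G (68.2 ± 0.868), APOBEC3C (62.3 ± 4.37) and APOBEC3B (16.1 ± 1.18 TPM) were expressed, with reads shared among them, and APOBEC3A was at 0.77, 0.25 and 0.54 TPM.

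Of the genes of antigen presentation, HLA-C was at 1624 ± 39.2 and HLA-B at 1516 ± 73.05 TPM, and their order was not separate. Of 14 MHC class II genes 10 were expressed (71.4%, near the 69.5% of all genes), with the invariant chain CD74 at 1273, 1358 and 1232 TPM, HLA-DRA at 159 ± 6.02 and HLA-DRB1 at 163 ± 2.34 TPM. CIITA, the activator of these genes, was at 1.48 ± 0.0839 TPM. CD276 (155 ± 8.51), NECTIN2 (118 ± 2.31) and CD47 (111 ± 9.39 TPM) led the immune checkpoint ligands, and CD274, which encodes PD-L1, was at 2.70 ± 0.0379 TPM. The cancer-testis gene MAGEA4 was at 129 ± 0.217 TPM, and the near-identical MAGEA3 and MAGEA6 were at 66.2 ± 1.95 and 61.1 ± 2.26 TPM.

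Markers of other cell types were then read from lists. Of 49 listed genes, squamous markers included, 14 were expressed (28.6%, against 69.5% of all genes). Of 9 fibroblast markers 1 was expressed (11.1%), COL1A1 at 10.02 ± 0.876 TPM, with the sum between 10.9 and 12.53 TPM. COL3A1 and POSTN were at 0 counts and DCN at 0, 0 and 0.07 TPM. Of 5 endothelial markers 1 was expressed (20%), CDH5 at 9.07 ± 1.67 TPM, with the sum between 8.08 and 11.2 TPM and PECAM1 at 0.36, 0.34 and 1.16 TPM. The leukocyte list had 4 of 8 expressed (50%, against 69.5% of all genes) and summed to 44.1, 41.8 and 50.1 TPM. Most of the sum was CD68 (32.04 ± 2.69 TPM), a lysosomal gene that epithelial lines also express, and CD14 (6.92 ± 1.85 TPM). MS4A1 and CD52 were at 0 counts, LYZ was at 0.11, 0.2 and 3.37 TPM, CSF1R at 3.24 ± 0.487 and ITGAM at 1.06 ± 0.0346 TPM. Sums for melanocytes (2.08 to 2.57 TPM), skeletal muscle (4.49 to 6.56), neurons (0.65 to 0.97), ciliated cells (5.18 to 8.31) and adipocytes (1.35 to 2.48 TPM) were low in all libraries. Their highest means were those of PMEL (1.147 ± 0.159), MB (2.59 ± 1.26), SYP (0.79 ± 0.164), DNAH5 (2.57 ± 0.166) and CIDEC (1.09 ± 0.65 TPM). For salivary acinar cells the 1 listed marker, BHLHA15, was at 7.45 ± 2.47 TPM.

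The spread between control libraries was small for most genes. The median coefficient of variation of the 11378 expressed genes was 7.50%, from 10.6% at a mean of 1 to 10 TPM to 6.51% at 10 to 100 and 5.90% at 100 to 1000 TPM. Of the 11378 expressed genes, 50, 21 and 98 were more than 1.5-fold above both others in replicates 1, 2 and 3. In the other direction, 58, 44 and 44 were more than 1.5-fold below both others. Replicate 3 thus had the most genes above and replicate 1 the most below. The most variable gene outside the set of replicate 3 was SULT1A4, a sulfotransferase with a near-identical copy, at 32.3, 0.71 and 0 TPM with reads shared between copies.

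Some levels rest on reads that other genes may share. Expected counts were whole within 0.001 for 91.6%, 92.0% and 90.5% of genes, and those of the named genes ALDOA, PGAM1, KYNU, ACTB, ACTG1, TUBA1B, TP63, NR3C1, SOD2, CDK4, CCL5, CD70, PHGDH, MAGEA3, MAGEA6, DSG2, DSG3, DSC3, HLA-B, HLA-C and HLA-DRB1, among others, were not, so reads were divided with similar genes. The exons of FTH1 are overlapped over 62.4% by BEST1 on the opposite strand, those of CA9 over 38.5% by ARHGEF39 and those of BAD over 23.6% by GPR137 (GENCODE 29, GRCh38). On the opposite strand lie also TSPAN31 over 43.2% of CDK4, SAMD14 over 38.5% of PDK2 and AFG3L2 over 20.3% of TUBB6. A readthrough gene covers 55.5% of TNFSF13 and 29.4% of TNFSF12. No source states that strand was used in counting, and reads of such partners cannot be told apart.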

How the data were processed

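Poly(A)-selected RNA of untreated Cal-27 cells was sequenced in 3 control libraries, with marking of the second strand by dUTP, per the labels' protocols. The authors quantified genes with RSEM 1.2.8 and Bowtie2 2.2.5, per the submitters' processing notes, and deposited expected counts, FPKM and TPM for each library. The notes name a mouse genome build although the gene identifiers are human, so the build behind the deposited values is uncertain, and the annotation and strand setting were not stated. The deposited TPM, used for all levels, have the same sum in every library, the deposited FPKM served only as an alternative, and the deposited expected counts gave depth, CPM and sampling noise.

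Libraries were taken by their treatment label. Depth was 11277837, 11386378 and 12605427 counts. Means, SDs, shares and level classes were computed with Python 3.11.15 and pandas 2.3.3, and scaling factors with edgeR 4.0.16 in R 4.3.3. With 1 group no test was made. The members and gene lists were chosen with earlier results of these data known. Named genes were the 20 highest, the leaders, runners-up and larger members of families, well-known low members, lineage markers, both members of pairs at 10 TPM or more and the 10 most variable genes of a mean of at least 10 TPM, with further members named for their known roles. Of the listed genes 16047 matched GENCODE 29 by NCBI identifier. The calculations were checked on simulated data. Other thresholds, units and left-out libraries were tried. Identity between proteins was not analysed here, and some members of the families are not reported here.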

Additional observations from a re-analysis of the deposited data

How the results depend on the processing

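No paired analysis was possible because a single group was described. Leaving out each library in turn gave 11449 to 11466 genes of at least 1 TPM, 7041 to 7063 of at least 10, 1285 to 1295 of at least 100, 128 to 129 of at least 1000 and 2115 to 2526 near 0. It gave 33.2% to 33.7% of TPM in the 50 highest genes, 25 to 27 families led at 90%, 41 to 43 pairs with both members expressed and a median coefficient of variation of 5.70% to 7.18%. Of 22 other settings 17 lay within 1.5 times of the reported value in either direction. Among these, by CPM of the expected counts, 8962 genes reached 10 in place of 6966 and 92 reached 1000 in place of 124. By CPM of the expected counts, without length scaling, 1914 genes reached 100 in place of 1265, and the 50 highest genes held 18.3% in place of 33.4%. Genes near 0 numbered 902 when a count of 0 was required and 3564 below 0.5 TPM, in place of 1948. With a share of 80% in place of 90%, 39 families were led by 1 member, against 25. By expected counts the leading member differed in 24 of 127 families, among them S100A6 to S100A9, CPT1B to CPT1A, BCL2L1 to MCL1 and RRAS to NRAS. Leaders given above without this remark changed too, from CD63 to CD151, SLC16A3 to SLC16A1, ACVR1 to ACVR1B, DLL1 to JAG1, APOBEC3G to APOBEC3C and SLC25A14 to SLC25A27. Orders within families thus depend on the lengths behind TPM. The share of the reported leader moved by more than its spread in 109 of 127 families, and by more than 1.5 times in 12. Without replicate 3 the leader changed from VIM to NEFM, from IL17RA to IL17RC and from SIGIRR (42.9 TPM) to IL1RAP (43.3 TPM). Levels of a few counts are limited by depth.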
